A study of Mus musculus with 20 samples.

Results

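The genes described here encode the respiratory chain and ATP synthase of mitochondria. They were chosen by name: every clone annotated to 1 gene symbol that starts with Nduf, Sdha to Sdhd, Uqcr, Atp5 or Cox followed by a digit, or that is Cycs or Cyc1. This gave 66 of the 6970 genes measured on either of 2 array designs, with 31 of 3838 genes on the first design, 42 of 4075 on the second and 7 on both. The first design read them with 39 clones, the second with 53, and clones of 1 gene were averaged within a design.

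Complex I takes electrons from NADH and complex II from succinate, complex III passes them to cytochrome c, and complex IV hands them to oxygen. Complexes I, III and IV pump protons across the inner membrane, and ATP synthase, counted as complex V, makes ATP as the protons flow back. Brown adipose tissue is rich in mitochondria and lets protons return through the uncoupling protein UCP1, which releases the energy as heat, while liver couples proton flow mainly to ATP synthesis. The Nduf and Cox prefixes also cover assembly factors, which help to build complexes I and IV without being subunits, and these were kept apart from the subunits.

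RNA of the Fob3b mouse line was compared with RNA of the F line in brown adipose tissue (BAT) and in liver on spotted cDNA arrays. F mice come from selection for fatness. Fob3b mice have the F background, shared by both lines, but carry lean-line alleles at an obesity locus on chromosome 15. Each line and tissue had 2 RNA pools, and pool 1 of Fob3b was set against pool 1 of F and pool 2 against pool 2, each in both dye orientations. How many animals made up a pool, and their age and sex, is unstated. Of the first design there were 4 arrays of BAT, 4 of liver and 2 that carried 1 liver pool in both channels. Of the second there were 2 of BAT, from pool pair 1 alone, and 4 of liver. A further 2 set liver pools of unlike number against each other across the lines, and 2 set the liver pools of 1 line against each other. Dye log ratios had been deposited, read here as log2, and ratios given here are Fob3b over F if red was divided by green. The second-design BAT arrays are described as F against F, but their channel labels name Fob3b in 1 channel, and these labels were followed, so all BAT signs on that design rest on them. Which dye was the numerator is not stated, so a positive value means more RNA in Fob3b under that reading and less under the other, and all signs would turn together. Because only ratios were given, no gene's level in a tissue can be stated and the tissues could not be checked by their marker levels. In bulk tissue, fewer cells of a type and less RNA per cell cannot be told apart.

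Each array was centred on its median clone. Duplicate spots correlated at 0.760 to 0.932 on arrays of the first design and at 0.636 to 0.865 on those of the second. Errors are moderated standard errors (SE) from limma with n = 2 pool pairs per tissue, and p values reflect how pool pairs differed and say nothing of single animals. On the first design a gene's spread was estimated over both tissues together and moderated by all genes. Its SE is therefore the same in BAT and liver and does not show the spread of either tissue alone. The median SE of a gene of this set was 0.20 on the first design, shared by the tissues, and 0.08 for liver on the second.

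Promoters of 4 of these genes are shown from RefSeq on GRCm38.p6, each running from 250 bases before to 50 after the gene's start and written in the direction of transcription. Ndufa10, Atp5l and Atp5g3 are the genes with an unadjusted limma p under 0.05 in one of the tissues, and Sdhb stands for the promoters that hold both of the first 2 motifs searched. Capitals mark matches, on either strand, to the NRF1 core GCATGCGC, the ETS core CCGGAAG bound by GABP, or the YY1 core AAGATGGC. These are motifs of factors known to act on respiratory genes. Ndufa10 encodes an accessory subunit of complex I, Atp5l the g subunit of ATP synthase, Atp5g3 a copy of its membrane c subunit and Sdhb the iron-sulphur subunit of complex II. The stretches lie at chr1:92473709-92474008 on the minus strand, chr9:44920693-44920992 on the minus strand, chr2:73911277-73911576 on the minus strand and chr4:140961021-140961320 on the plus strand.
Ndufa10: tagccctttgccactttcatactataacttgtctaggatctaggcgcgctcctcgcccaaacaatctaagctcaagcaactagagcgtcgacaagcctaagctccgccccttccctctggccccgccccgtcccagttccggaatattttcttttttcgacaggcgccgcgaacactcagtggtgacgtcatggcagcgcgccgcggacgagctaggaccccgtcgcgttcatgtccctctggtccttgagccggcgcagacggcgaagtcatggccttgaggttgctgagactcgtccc
Atp5l: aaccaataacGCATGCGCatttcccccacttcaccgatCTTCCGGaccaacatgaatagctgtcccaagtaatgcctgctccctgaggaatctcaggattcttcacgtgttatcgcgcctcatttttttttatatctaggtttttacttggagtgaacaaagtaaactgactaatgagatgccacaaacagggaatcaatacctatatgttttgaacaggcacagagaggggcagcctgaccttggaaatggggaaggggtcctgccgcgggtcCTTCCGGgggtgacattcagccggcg
Atp5g3: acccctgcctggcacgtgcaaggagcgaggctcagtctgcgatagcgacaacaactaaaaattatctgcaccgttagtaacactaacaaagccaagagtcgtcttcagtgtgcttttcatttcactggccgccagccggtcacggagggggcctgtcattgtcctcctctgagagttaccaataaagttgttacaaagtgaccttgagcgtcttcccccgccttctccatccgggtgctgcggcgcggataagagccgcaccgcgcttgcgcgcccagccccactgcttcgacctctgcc
Sdhb: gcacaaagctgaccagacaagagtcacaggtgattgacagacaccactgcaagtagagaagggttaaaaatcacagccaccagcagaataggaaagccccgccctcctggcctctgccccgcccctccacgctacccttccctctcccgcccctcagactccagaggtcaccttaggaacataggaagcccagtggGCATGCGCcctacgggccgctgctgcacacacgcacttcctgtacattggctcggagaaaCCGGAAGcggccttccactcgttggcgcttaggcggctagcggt

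A promoter was found for 55 of the 66 genes. The NRF1 core was present in 9 of them, or 16.4%, against 3.05% of the 27025 genes with a promoter. The ETS core was present in 20, or 36.4%, against 9.93%, and the YY1 core in 8, or 14.5%, against 3.19%. Of 2 general promoter motifs also searched, CCAAT was present in 50.9% against 41.1% and TATAAA in 10.9% against 15.7%. The median GC content was 57.5% over the set's 60 promoters and 52.7% over all 32851, and its part in the motif shares was not tested. The Atp5l promoter held 1 NRF1 and 2 ETS matches and that of Sdhb 1 of each, while those of Ndufa10 and Atp5g3 held no match to these letters. A match describes the sequence only and shows neither binding nor a cause of a ratio.

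In BAT on the first design nearly the whole set lay on the positive side, by small amounts. Of the 31 genes 30 had a positive mean, where 60.2% of all genes did, and the median was 0.13 against 0.04 for all genes. The largest means were those of Ndufaf6, a complex I assembly factor, at 0.32, Ndufa10 at 0.31, Sdhd, a membrane anchor of complex II, at 0.29 and Ndufs4, a complex I accessory subunit, at 0.27. None passed limma's test: 0 of the 31 and 0% of all genes had an adjusted p under 0.05, and at an unadjusted p under 0.05 there were 0 of the 31 and 1.02% of all genes. Likewise 0 of the 31 were positive on every array (3.41% of all genes) and 0 negative on every array (2.79%). Without the pool pair 2 array that had Fob3b in red, 11 of the 31 were positive and the median was -0.08. That leaves pool pair 2 with 1 dye orientation. Pool pair 1 alone, with both orientations, had 22 of the 31 positive and a median of 0.05.

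The arrays of the pool pairs differed. On pool pair 1 the median of the 31 genes was 0.02 with Fob3b in red and 0.14 with Fob3b in green. On pool pair 2 it was 0.53 with Fob3b in red and -0.27 with Fob3b in green, so the orientations of this pair opposed each other. The medians of the pool pairs were 0.05 and 0.26, an SD of 0.14, with 22 and 27 of the 31 genes positive, and 18 genes were positive in both.

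**Figure D1:**
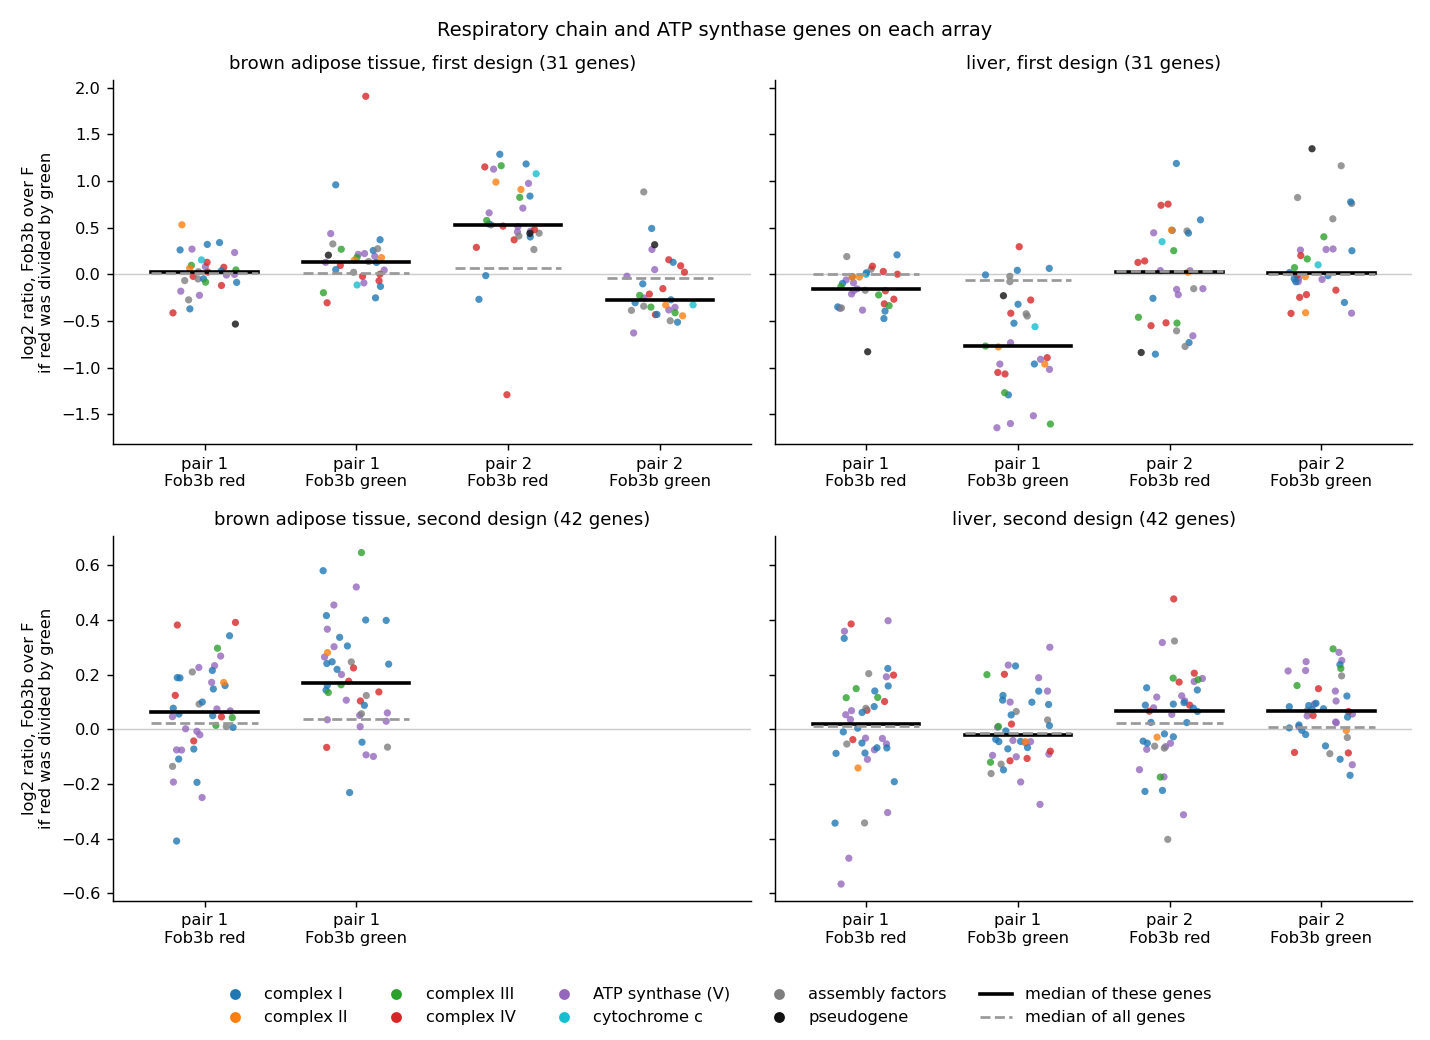
Log2 ratio of each gene on each array, with Fob3b over F if red was divided by green (vertical axis), for BAT and liver on the first design (top, 31 genes) and the second (bottom, 42 genes). Points are genes coloured by complex, black bars their median and dashed grey bars the median of all genes. The BAT arrays of pool pair 2 have medians of 0.53 and -0.27, and the liver array of pool pair 1 with Fob3b in green has -0.77.

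Ndufa10 had 0.26 and 0.25 on the BAT arrays of pool pair 1 with Fob3b in red and in green, and 0.84 and -0.10 on those of pool pair 2. Its mean was 0.31 (SE 0.20, unadjusted limma p 0.147), with 3 of 4 arrays positive. Sdhd had 0.53 and 0.15 in pool pair 1 and 0.91 and -0.45 in pool pair 2 (SE 0.20). Ndufaf6 differed more between the pairs, at -0.27 and 0.14 in pool pair 1 and 0.53 and 0.88 in pool pair 2 (SE 0.22). Cox6b2, the testis form of a complex IV subunit, had the widest range, with -0.41 and 1.91 in pool pair 1 and -1.29 and 0.02 in pool pair 2, around a mean of 0.06. Cox16, a complex IV assembly factor, was the 1 gene with a negative mean, at -0.0028.

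By complex, all subunits had positive means in BAT on the first design. Complex I had 7 subunits with a median of 0.11, from 0.04 for Ndufc2 to 0.31 for Ndufa10. Complex II had Sdhb at 0.23 and Sdhd at 0.29. The 3 genes of complex III ran from 0.12 for Uqcrc1, a core protein, to 0.22 for Cyc1, cytochrome c1, and Uqcrh, the hinge protein, had 0.13. Complex IV had 6 genes counted as subunits, Cox7a2l among them, and the lowest median, 0.08, from 0.03 for Cox8a to 0.18 for Cox7b. ATP synthase had 7 subunits with a median of 0.16, from 0.10 for Atp5d, the delta subunit of its rotor, to 0.25 for Atp5a1, the alpha subunit of its head. Cycs, the cytochrome c that carries electrons between complexes III and IV, had 0.20. The median of the 4 assembly factors was 0.05. Complexes were described and not tested against each other, and the pool-pair medians of a complex differed with an SD of 0.03 for complex II to 0.17 for complex I.

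In liver on the first design the set lay mostly on the negative side, and ATP synthase and complex III lay lowest. Both also had the lowest medians of complexes I to V where 1 liver pool filled both channels, read as red over green. With Fob3b this was narrow, at -0.192 for ATP synthase and -0.188 for complex I. Those arrays had set medians of -0.17 and -0.18 red over green, while the pool pair 1 array with F in red had 0.77. Whether these values are linked was not tested. In the line comparison 26 of the 31 genes had a negative mean, where 54.6% of all genes did. The median was -0.19 against -0.02 for all genes. Ndufa10 at -0.53, Atp5l at -0.52, Atp5a1 at -0.45, Uqcrh at -0.45 and Cox8a, a small complex IV subunit, at -0.42 had the lowest means. With limma 0 of 31 genes passed, as did 0% of all genes, and 2 of 31, Ndufa10 and Atp5l, had an unadjusted p under 0.05, where 2.68% of all genes did. Atp5l and Atp5d were the 2 genes negative on every array (3.41% of all genes), and 0 were positive on every array (4.85%).

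Pool pair 1 carried this result. Its median over the 31 genes was -0.50, with 29 of them negative, while that of pool pair 2 was -0.0022, with 16 negative, an SD of 0.35. Within pool pair 1 the array with Fob3b in green gave a median of -0.77 and the array with Fob3b in red -0.16, and both arrays of pool pair 2 gave 0.02. Without that green array, which leaves pool pair 1 with 1 dye orientation, the median over the 31 genes was -0.05 and 19 were negative.

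Ndufa10 had -0.35 and -1.29 on the liver arrays of pool pair 1 with Fob3b in red and in green, and -0.73 and 0.25 on those of pool pair 2. That is a mean of -0.53 (SE 0.20, unadjusted limma p 0.0216, adjusted p 0.9998), a 1.45-fold difference, with 3 of 4 arrays negative. Atp5l had -0.18 and -1.60 in pool pair 1 and -0.22 and -0.08 in pool pair 2, so 1 array stood far below the other 3. Its mean was -0.52 (SE 0.22, unadjusted limma p 0.0354, adjusted p 0.9998), negative on 4 of 4 arrays. Atp5d had -0.06 and -0.96 in pool pair 1 and -0.16 and -0.04 in pool pair 2, for a mean of -0.31 (SE 0.20). At the positive end stood Ndufaf4, an assembly factor of complex I, at 0.29, Cox16 at 0.23 and the complex I subunits Ndufb6 at 0.14, Ndufc2 at 0.12 and Ndufs8 at 0.03.

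The 7 ATP synthase subunits had a liver median of -0.37, from -0.52 for Atp5l to -0.27 for Atp5b, the catalytic beta subunit. The 3 genes of complex III also had a median of -0.37, from -0.45 for Uqcrh to -0.29 for Cyc1, the 1 gene of the set on chromosome 15 on this design. Complex I, from -0.53 to 0.14, had -0.12, complex II -0.22, with Sdhd at -0.23 and Sdhb at -0.20, and complex IV -0.16, from -0.42 for Cox8a to -0.01 for Cox7b. The assembly factors had a median of 0.06, Cycs had -0.03 and the pseudogene Ndufs5-ps, which had 0.11 in BAT, had -0.14. In pool pair 2 alone the median was -0.10 for ATP synthase, -0.18 for complex III and 0.23 for complex I, so the sign of complex I was that of pool pair 1.

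**Figure D2:**
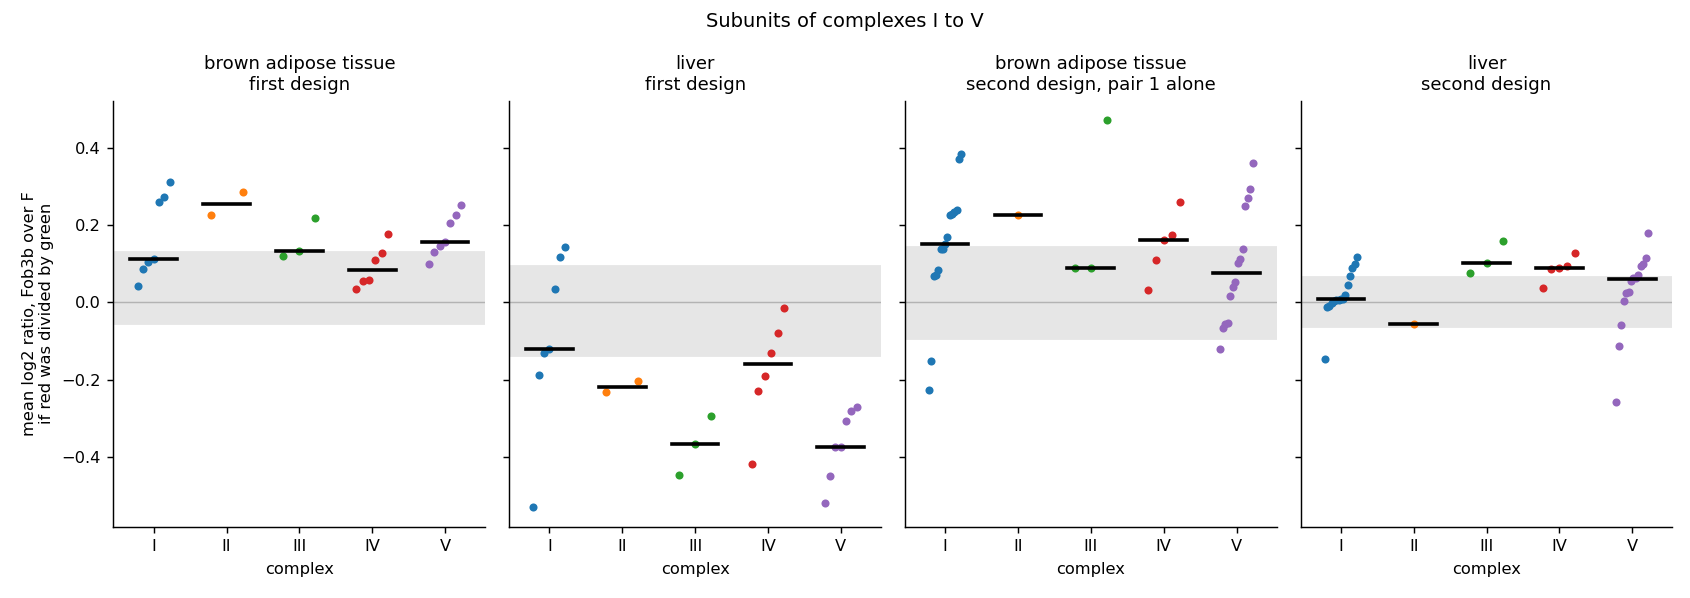
Mean log2 ratio of each subunit, with Fob3b over F if red was divided by green (vertical axis), by complex for BAT and liver by design, where second-design BAT had pool pair 1 alone. Points are genes, black bars the median of a complex and the grey band the interquartile range of all genes of that design and tissue. All subunits are positive in BAT on the first design, and the ATP synthase subunits lie between -0.52 and -0.27 in liver there but have a median of 0.06 in liver on the second design.

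The question of whether the tissues differed in the line ratio could be tested on the first design, where each had both pool pairs. Positive in BAT and negative in liver were 26 of the 31 genes, against 37.2% of all genes. That count was 11 without the BAT pool pair 2 array with Fob3b in red, 19 without the liver pool pair 1 array with Fob3b in green and 16 without liver pool pair 1. Leaving out 1 array leaves its pool pair with 1 dye orientation. The difference BAT minus liver was positive for 27 of 31 (60.6% of all genes), with a median of 0.41 against 0.06. Ndufa10 had the largest difference, 0.31 in BAT against -0.53 in liver, which is 0.84 (SE 0.29, unadjusted limma p 0.0118, adjusted p 0.998). It was the 1 gene of 31 with an unadjusted p under 0.05 (2.94% of all genes), and 0 of 31 passed after adjustment, as did 0% of all genes. Next came Atp5a1 at 0.70, Atp5l at 0.67 and Uqcrh at 0.58, and the lowest were Ndufaf4 at -0.24, Cox16 at -0.23, Ndufc2 at -0.08 and Ndufb6 at -0.03. By complex the median difference was 0.50 for ATP synthase, 0.51 for complex III, 0.47 for complex II, 0.25 for complex IV and 0.23 for complex I. Without liver pool pair 1 the median over the 31 genes was 0.13.

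BAT was read on the second design with pool pair 1 alone, so its ratios are values with no test. Of the 42 genes 34 were positive (57.5% of all genes), with a median of 0.13 against 0.03 for all genes. The median was 0.06 with Fob3b in red and 0.17 with Fob3b in green. On both arrays 28 genes were positive (38% of all genes) and 4 negative (25.5%). Those 4 were Ndufb10, Ndufa7, Atp5g1 and Atp5j2.

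Uqcrc2, a core protein of complex III, had 0.30 with Fob3b in red and 0.65 with Fob3b in green, and its mean of 0.47, or 1.39-fold, was the highest of the set. Its 2 clones gave 0.48 and 0.47. Ndufs1, the large iron-sulphur subunit of complex I, had 0.19 and 0.58, a mean of 0.39. Ndufa8, an accessory subunit of complex I, had 0.34 and 0.40, a mean of 0.37, and Atp5a1 had 0.27 and 0.46, a mean of 0.36. The lowest was Ndufb10, an accessory subunit of complex I, with -0.41 and -0.05, a mean of -0.23. Ndufa7, another accessory subunit, had -0.15 and Atp5o, the stalk subunit that links the catalytic head of ATP synthase to its stator, had -0.12.

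By complex the BAT medians on this design were 0.15 for the 15 subunits of complex I, 0.09 for the 3 of complex III, 0.16 for the 5 of complex IV and 0.08 for the 14 of ATP synthase, and Sdha, the flavoprotein of complex II, had 0.23. Complex IV ran from 0.03 for Cox7a2 to 0.26 for Cox6a1, and in complex III Uqcrb and Uqcr11 had 0.09 each. Grouped after the values had been seen, and so with no test, the 4 complex I subunits of the conserved core, Ndufs1, Ndufs7, Ndufv1 and Ndufv2, lay between 0.23 and 0.39, and the 11 accessory subunits between -0.23 and 0.37. Of ATP synthase, the head and rotor subunits Atp5a1, Atp5b and Atp5c1 lay between 0.25 and 0.36, while Atp5e, the epsilon subunit of the rotor, had -0.07. The stator subunits did not stand together, with Atp5pb at 0.29, Atp5j at 0.02 and Atp5o at -0.12. The c-ring genes Atp5g1 and Atp5g3 had -0.06 and 0.05, and the 5 small membrane subunits lay between -0.05 and 0.14. The 4 assembly factors had a median of 0.04, with Cox10, which makes the haem precursor of complex IV, at 0.23.

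In liver on the second design the set stood close to 0. Of 42 genes 32 had a positive mean (51.8% of all genes), with a median of 0.04 against 0.0050 for all genes, and the pool pairs had medians of 0.02 and 0.07, an SD of 0.03. With limma 0 of 42 passed while 0.27% of all genes did, and 1 of 42 had an unadjusted p under 0.05 (9.99% of all genes). On every array of the pool pairs 5 genes were positive (9.99% of all genes) and 3 negative (8.96%).

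The gene with that p was Atp5g3, a c-ring subunit of ATP synthase. It had -0.57 and -0.27 in pool pair 1 with Fob3b in red and in green, and -0.06 and -0.13 in pool pair 2. Its mean was -0.26 (SE 0.09, unadjusted limma p 0.0161, adjusted p 0.320), negative on 4 of 4 arrays. Its clones gave -0.16 and -0.36, and on the arrays with the pools crossed between the lines it had 0.10 and 0.20, on the other side of 0. Cox10 at -0.16 and Sdha at -0.05 were the other 2 genes negative on every array of the pool pairs. The clones of Sdha gave 0.05 and -0.16. With the pools crossed, Sdha had 0.15 with Fob3b pool 1 and 0.04 with Fob3b pool 2, and Cox10 had -0.34 and 0.04. The 5 positive on every array of the pool pairs were Atp5k, the e subunit of ATP synthase, at 0.18 (SE 0.08, unadjusted limma p 0.0508), Uqcrc2 at 0.16, Ndufaf3, an assembly factor of complex I, at 0.13, Cox6c at 0.09 and Atp5md at 0.07. On the crossed arrays, with Fob3b pool 1 and then pool 2, Atp5k had 0.33 and -0.04 and Uqcrc2 0.29 and -0.08. Ndufaf3 had -0.08 and 0.13 there, Cox6c -0.09 and 0.26 and Atp5md 0.25 and 0.12.

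By complex the liver medians were 0.0082 for complex I, 0.10 for complex III, 0.09 for complex IV and 0.06 for ATP synthase. Complex I ran from -0.15 for Ndufb10 to 0.12 for Ndufa12, complex III from 0.08 for Uqcr11 to 0.16 for Uqcrc2, complex IV from 0.04 for Cox4i1 to 0.13 for Cox6b1, and ATP synthase from -0.26 for Atp5g3 to 0.18 for Atp5k. The genes of the set on chromosome 15 stood near 0 in liver, with Ndufb9 of complex I at 0.0070, Cox6c of complex IV at 0.09 and the assembly factor Cox14 at 0.04. In BAT these 3 had 0.07, 0.11 and -0.04.

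The 7 genes on both designs show how far a ratio depended on the array, since both designs read pools of the same name with different clones. In BAT pool pair 1 Atp5a1 gave 0.26 on the first design, 0.36 on the second, and Atp5b 0.23 and 0.25. Atp5pb, the b subunit of the stator, had 0.10 and 0.29 and Atp5c1, the gamma subunit of the rotor, 0.0049 and 0.27. Cox4i1 of complex IV had -0.14 and 0.17, Ndufb7 of complex I -0.16 and 0.14 and Atp5l -0.05 and 0.11, so 4 of the 7 kept 1 sign.

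In liver pool pair 1 the designs stood far apart. Atp5a1 had -0.95 on the first array design and -7.3e-05 on the second, Atp5b -0.90 and -0.0022, Atp5l -0.89 and 0.11, Atp5pb -0.56 and -0.08 and Atp5c1 -0.55 and -0.01. Cox4i1 had -0.14 and -0.0024 and Ndufb7 -0.20 and 0.16, so 5 of the 7 kept 1 sign. The 7 genes had a median of -0.56 by the first design, against -0.0022 by the second. In liver pool pair 2 the medians were -0.02 and 0.09, and 2 of 7 genes kept 1 sign. The low liver values of ATP synthase on the first design were thus not met again on the second for pools of the same name, and the cause was not tested.

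**Figure D3:**
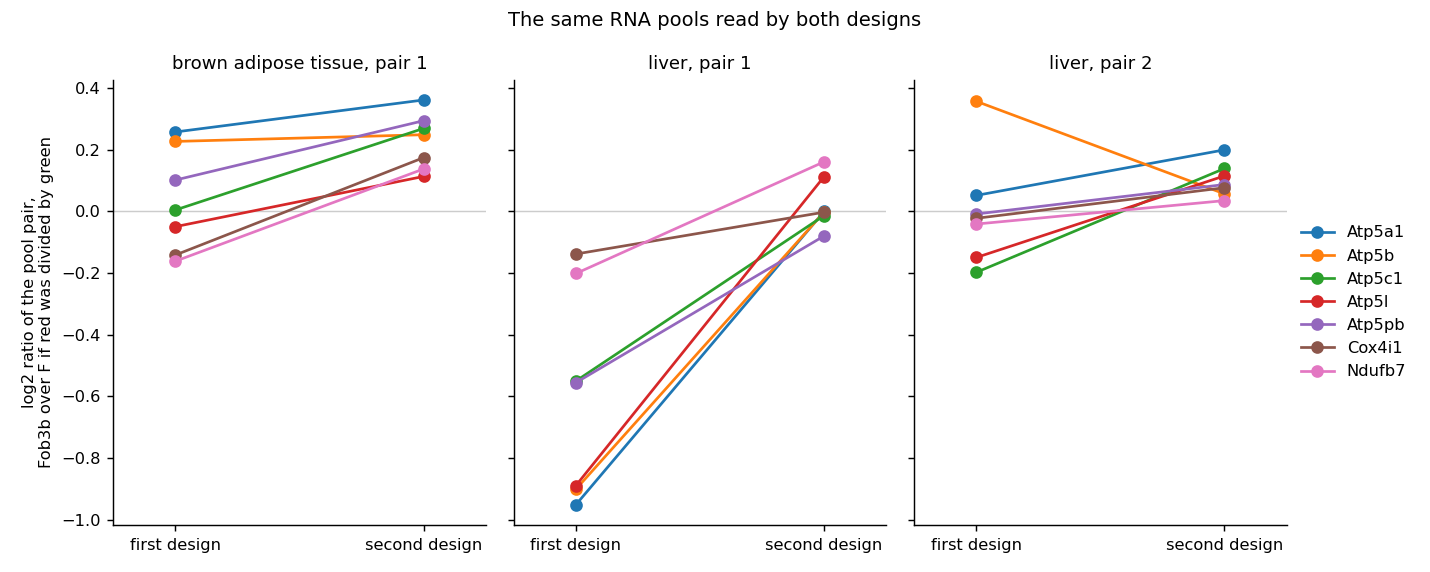
Log2 ratio of a pool pair, with Fob3b over F if red was divided by green (vertical axis), for the 7 genes measured on both designs, in BAT pool pair 1 and in liver pool pairs 1 and 2. Lines join the values of 1 gene on the designs. In liver pool pair 1 the 5 ATP synthase genes lie between -0.95 and -0.55 on the first design and between -0.08 and 0.11 on the second.

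Genes with several clones gave another view of precision. On the first design the 3 clones of Atp5a1 had 0.34, 0.17 and 0.25 in BAT and -0.16, -0.66 and -0.53 in liver. Both clones of Atp5h, a stator subunit, had 0.16 and 0.13 in BAT and -0.44 and -0.32 in liver. Cox7a2l, counted here with the complex IV subunits, is a factor that joins complexes III and IV into supercomplexes. Its clones had 0.12 and 0.14 in BAT and -0.08 and -0.18 in liver, and those of Cox7c had 0.04 and 0.08 against -0.18 and -0.27. Cox8a had 1 clone on each side of 0 in BAT, at -0.03 and 0.10, as did Uqcrc1, at 0.25 and -0.01, and Cycs had 0.06 and -0.11 in liver. On the second design the clones of Atp5b gave 0.34 and 0.16 in BAT, those of Atp5c1 0.30 and 0.24, those of Cox4i1 0.11, 0.21 and 0.20, those of Ndufb5 0.25 and 0.21, those of Sdha 0.15 and 0.31 against 0.05 and -0.16 in liver, those of Atp5o -0.13 and -0.11 and those of Uqcrb 0.01 and 0.16. The clones of Atp5g1 had opposite signs, at -0.16 and 0.05 in BAT and -0.07 and 0.11 in liver.

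Arrays with the same line in both channels show how far the set moved together with no difference of line. On the first design the liver pool 1 of Fob3b against itself gave the 31 genes a median of -0.17 red over green, with 5 positive, and that of F gave -0.18, with 9 positive, against -0.03 for all genes on each. Atp5a1 had -0.54 and -0.67 there and Atp5b -0.51 on both. For complexes I to V in order, the medians were -0.19, -0.06, -0.22, 0.01 and -0.19 with Fob3b. With F they were -0.22, -0.16, -0.40, 0.04 and -0.39, so complexes III and V lay lowest with no difference of line. With Fob3b complex V, at -0.192, was barely below complex I, at -0.188. Liver pool 2 over pool 1 on the second design gave medians of -0.03 in Fob3b and -0.04 in F. The arrays with the pools crossed gave 0.05 with Fob3b pool 1 against F pool 2 and 0.12 with Fob3b pool 2 against F pool 1. Read as red over green, the first-design line arrays had medians of 0.02, -0.14, 0.53 and 0.27 in BAT and of -0.16, 0.77, 0.02 and -0.02 in liver, so in BAT pool pair 2 the red dye read higher for this set in both orientations. Averaging the orientations removes such an offset only where it is equal on both arrays, which was not tested.

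**Figure D4:**
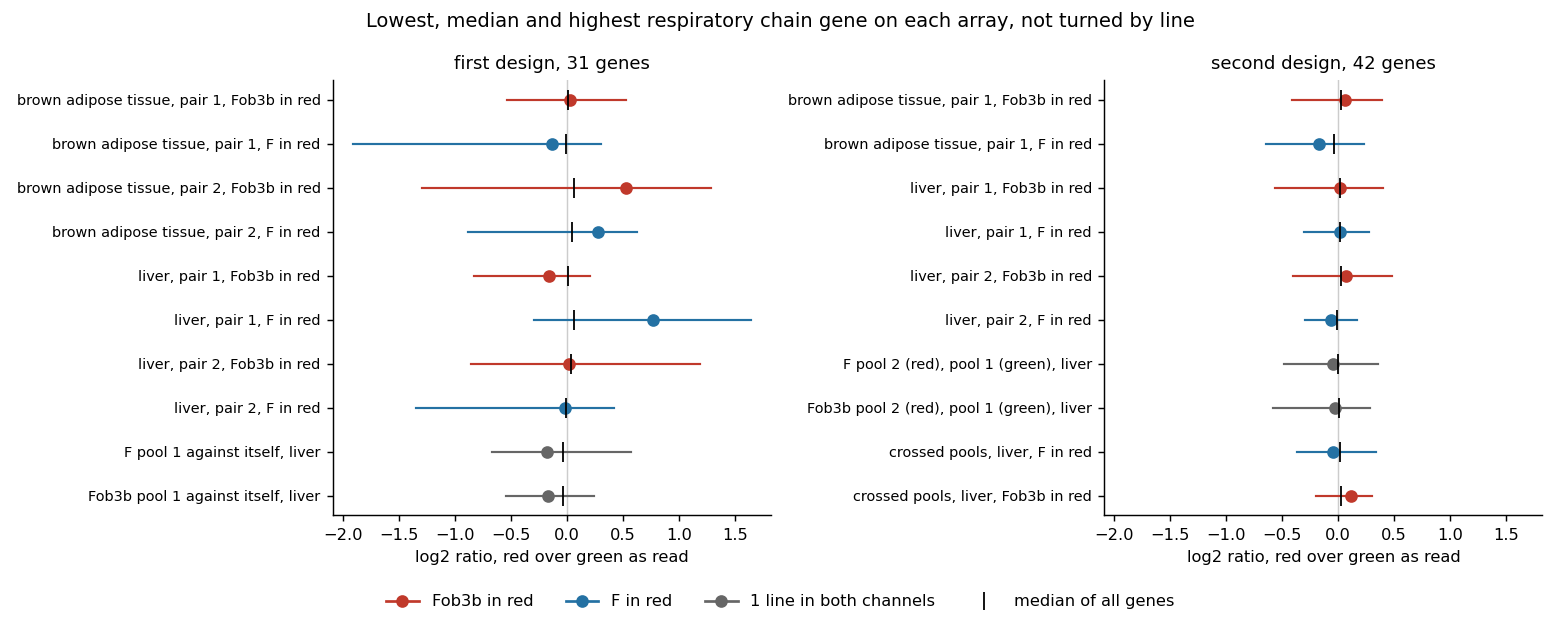
Lowest, median (point) and highest gene of the set on each of the 20 arrays as the log2 ratio of red over green (horizontal axis), not turned by line, with the median of all genes as a black tick. Red marks arrays with Fob3b in red, blue those with F in red and grey those with 1 line in both channels. The arrays of a liver pool against itself have medians of -0.17 and -0.18, and the liver array of pool pair 1 with F in red has 0.77.

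Genes around the respiratory chain were taken from lists that also cover its supply and control. In limma's test 0 of them passed in BAT or liver on the first design (0% of all genes each) and 0 in liver on the second (0.27%), while BAT on the second was not tested. The counts by side for all these lists stand beside shares of all genes. On the first design 60.2% were positive in BAT and 54.6% negative in liver. On the second 57.5% were positive in BAT and 51.8% in liver. How far the list counts depend on single arrays was not tested. Electron donors and coenzyme Q enzymes had 7 of 8 genes positive in BAT and 7 of 8 negative in liver on the first design, with medians of 0.15 and -0.14. Gpd2, which feeds electrons from glycerol 3-phosphate to coenzyme Q, had 0.53 in BAT and -0.26 in liver, and Cyb5b, a cytochrome b5 of the outer membrane, 0.41 and -0.06. Cyb5a had 0.04 in BAT and -0.57 in liver, and Coq5, of coenzyme Q synthesis, 0.29 and -0.19. By the second design 6 of 8 were positive in BAT, with Cyb5b at 0.65 and Coq4 at -0.35, and 4 of 8 in liver. Coq4 had 0.24 in BAT on the first design, on the other side of 0.

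Genes of cristae, fusion and quality control had 4 of 4 positive in BAT on the first design, with Phb, a prohibitin, at 0.30, and 10 of 11 on the second, at a median of 0.32. There Chchd3 of the cristae junctions had 0.38, the protease gene Spg7 0.36 and Phb 0.35, and the fusion gene Mfn2 had -0.36. In liver 1 of 4 and 7 of 11 were positive, with medians of -0.11 and 0.01. Exchange carriers and channels had 5 of 7 positive in BAT and 1 of 7 in liver on the first design, with Vdac1, the outer membrane channel, at 0.23 and -0.56. On the second design they had 4 of 5 positive in BAT, with the phosphate carrier gene Slc25a3 at 0.37 and Vdac1 at 0.35, and 1 of 5 in liver. Slc25a3 had -0.17 in BAT by the first design, and Vdac1 had 0.08 in liver by the second, so each changed side between the designs.

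Regulators of mitochondrial content did not stand on 1 side. On the first design 7 of 7 were positive in BAT, from 0.0061 to 0.21 for Gabpb1, a GABP subunit, among them Ppargc1b, a coactivator, at 0.20 and Tfam, the mitochondrial transcription factor, at 0.14. On the second 6 of 8 were negative in BAT, with Sirt1, a deacetylase, at -0.45, Pprc1, a PGC-1-related coactivator, at -0.15 and Yy1 at -0.13, and Tfb2m, a mitochondrial transcription factor, at 0.21. In liver 3 of 7 and 2 of 8 were positive, with Ppargc1b at -0.31 and Sirt1 at -0.36. Assembly factors outside the name rule had 1 of 4 and 10 of 13 positive in BAT, with Acad9, of complex I assembly, at 0.42 and Atpaf2, of ATP synthase assembly, at 0.39 on the second design (Atpaf2 had -0.12 in BAT on the first), and 3 of 4 and 6 of 13 in liver. Genes of oxidant defence had 2 of 2 and 4 of 5 positive in BAT, with Txn2, the mitochondrial thioredoxin, at 0.31 and Prdx3 at 0.32, and 0 of 2 and 5 of 5 in liver.

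Markers of other cell types lay off 0 on some of the same arrays. Of 18 skeletal muscle markers 2 were measured on each design, Tpm2 and Actn3 at -0.58 and -0.47 in BAT on the first, and Tpm2 and Mylpf at 0.74 and 0.69 on the second. In BAT pool pair 1 alone Tpm2 stood at -0.89 by the first design, against 0.74 by the second. All 5 measured hepatocyte markers of 20 were negative in liver on the first design, with Alb, the albumin gene, at -0.74 and Apob at -0.38. Lyz2, the 1 measured macrophage marker of 13 there, had -0.44 in liver and -0.01 in BAT, and the endothelial markers Cdh5 and Emcn had 0.64 and -0.09 in liver and 0.21 and 0.08 in BAT. On the second design the 3 macrophage markers lay between -0.18 and -0.02 in BAT, and the blood markers Alas2, Hbb-b1 and Slc4a1 had -0.28, 0.01 and 0.16 there and -0.06, -0.23 and 0.16 in liver. Of 14 brown adipocyte markers 0 were measured on the first design and Elovl3 and Prdm16 on the second, at -0.05 and -0.15 in BAT, so Ucp1 was not among the genes measured, and Lpl, the 1 measured general adipocyte marker of 11, had -0.25 in BAT. The part of these cell types in the ratios of the set was not tested.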

How the data were processed

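The deposited values are 1 dye log ratio per spot and array, taken as log2. Neither their log base nor their numerator is stated, intensities are not used here, and the authors' normalization is not given in the sources used. Where a slide's description and its channel labels differed, the channel labels were used: this concerns the BAT arrays of the second design and the array of a Fob3b pool against itself. Each design had 17280 spots in 48 blocks, and the paired spots of 7680 clones were averaged after 1920 control spots had been left out. No values were missing. Arrays were centred on the median of their clones, since the medians as deposited ran from -0.82 to 1.40, and turned to Fob3b over F. Clones were named by the annotation supplied for the arrays, and those with several genes, 1 and 4 of this set, were not named.

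The dye orientations of a pool pair were averaged first. All single-symbol genes of a design were fitted in R 4.3.3 by limma 3.58.1, tissue being the factor, with 10.2 or 10.4 prior degrees of freedom, two-sided tests and Benjamini-Hochberg adjustment, at a threshold of 0.05. On the second design BAT entered the fit with 1 pool pair and was not tested. Only the limma fit, for liver, was tested on simulated data, which were pool-pair values with independent normal errors. Averaging of spots and clones, centring, turning and averaging of dye orientations were not covered. Tables and figures were made with Python 3.11.15, pandas 2.3.3 and matplotlib 3.10.9.

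The genes and lists were chosen with earlier results of these data known. The text names, for either side of a comparison, the 3 largest means among genes of 1 sign on every array (filled up by mean), every gene with an unadjusted p under 0.05, the ends of each complex, genes on both designs or with several clones, and up to 4 genes per list. Alternatives concerned centring, scaling, combining clones, replicates, dye, tissue and left-out pool pairs or arrays. Precision is limited by the number of arrays, and no depth exists for them.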

Additional observations from a re-analysis of the deposited data

Results flagged for a closer look

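With 4 arrays in a group, 1 array stood far from the other 3 for 8 of 104 sets of gene values and 2 of 18 sets of medians. The gap used is passed by about 1 in 20 sets of independent normal values. Arrays here share pools and genes share arrays, so that rate is only a rough guide. The share over all genes was not computed. In liver on the first design the low array, always that of pool pair 1 with Fob3b in green, had -1.60 for Atp5l, -0.96 for Atp5d, -1.02 for Atp5pb and -0.78 for Sdhb, and it gave the ATP synthase subunits their median of -1.02. Ndufc2 had a high array there at 0.44, the pool pair 2 array with Fob3b in red. That array of BAT on the first design had a complex IV median of 0.42. In liver on the second design Atp5a1 had a low array at -0.19, Atp5pb a high one at 0.25 and Ndufaf3 a high one at 0.32.

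On the second design 3 of 42 genes were positive on every BAT array and negative on every liver array of the pool pairs. Of all 4075 genes 1.89% were. On the first 0 of 31 were, where 0.234% of all genes were. The difference BAT minus liver was 0.38 for Cox10, 0.31 for Atp5g3 and 0.28 for Sdha. The clones of Sdha lay on both sides of 0 in liver, at 0.05 and -0.16. The count leaves out the crossed-pool liver arrays. With Fob3b pool 1 and then pool 2, Cox10 had -0.34 and 0.04 on them. Atp5g3 had 0.10 and 0.20 and Sdha 0.15 and 0.04, so none was negative on every liver line array. The differences BAT minus liver were not tested, because BAT had 1 pool pair on this design.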

How the results depend on the processing

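All 49 recomputed counts of genes of the set past the threshold were 0, as reported. Of 386 recomputed values 342 moved by less than the SD between pool pairs, or, for BAT on the second design, between its 2 arrays, or stayed within 1.5 times a count. The 342 include the 49 counts that stayed 0. An SD between 2 pool pairs can be wide, and a median could change sign within it, so the 342 are no measure of stability. Without centring every gene shifted, by 0.27 in BAT and -0.09 in liver on the first design and by -0.37 in both tissues on the second, so the signs given are relative to the median clone. The medians then were 0.40 for the set in BAT on the first design, with 0.38, 0.52, 0.40, 0.35 and 0.42 for complexes I to V. They were -0.24 for the set in BAT on the second design, with -0.21, -0.14, -0.28, -0.20 and -0.29, and 3 of 42 genes positive. In liver on the second design they were -0.32 for the set, with -0.36, -0.42, -0.27, -0.28 and -0.31, and 0 of 42 positive. For BAT minus liver the median was 0.77.

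With each printing block centred, BAT on the second design had 0.38, 0.10 and 0.0148 for complexes II, IV and V, and complex I in liver had 0.0561. With arrays scaled to a common spread, complex II in BAT was 0.19 on the first design and complex IV 0.10 on the second. The mean over genes in BAT on the second design was 0.22 for complex III and 0.15 for complex IV, and with the crossed-pool arrays added complex I in liver was 0.0312. Leaving out a pool pair gave, in BAT on the first design, 0.0945 to 0.33 for complex I and 0.14 to 0.30 for complex III. In liver on the first design it gave -0.20 to 0.23 for complex I, positive without pool pair 1, and 16 to 29 negative genes, 16 without pool pair 1. Genes positive in BAT and negative in liver then numbered 16 to 28, with 16 without liver pool pair 1. Second-design liver gave 0.0181 to 0.0352 for complex I and 0.0799 to 0.21 for complex III. For BAT minus liver it gave 0.13 to 0.63.

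Chosen after seeing the data, leaving out the BAT pool pair 2 array with Fob3b in red gave a median of -0.0762, with -0.0782, -0.13 and -0.0139 for complexes II, III and V, and 11 of 31 positive, each of them negative in liver. The array left behind has the other dye orientation alone. Leaving out the liver pool pair 1 array with Fob3b in green moved the medians by less than the SD between pool pairs, but complexes I and IV then lay on the positive side, at 0.0843 and 0.0029, and the set's median was -0.0481.

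With the pool number as a replicate block, BAT minus liver again had 0 genes of the set past the threshold, and 6 rather than 1 at an unadjusted p under 0.05. Pool numbers are shared by both tissues, but the labels do not say that the animals are, and the deviations of same-numbered pairs correlated at 0.37 across 3838 genes. Over all genes, liver on the second design had 11 past the threshold, 27 with blocks centred, 67 without centring, 25 over clones, 7 with arrays centred on the median spot in place of the median clone, an alternative added after seeing the data, and 0 with scaling, with every array its own replicate (with or without a dye term) or with the crossed-pool arrays. For first-design liver the count over all genes was 0, and 15 without pool pair 2. Leaving out a pool pair on the second design left no residual degrees of freedom, so only medians were recomputed. Ndufa4, to be moved between complexes, was not measured, so that alternative was not run. The causes of these changes were not tested.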
